A study of Auxenochlorella pyrenoidosa with 12 samples.

Results

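A mild cut in nitrate, to 1 g/L NaNO3 against 1.5 g/L, was examined in the green alga Auxenochlorella pyrenoidosa by RNA-seq of poly(A)-selected RNA. The comparison rests on 6 of the 12 libraries of the study, defined by their labels: 3 libraries of group N1 (1 g/L) and 3 of the control group N1.5 (1.5 g/L). The other 6 libraries, 3 of N0.5 (0.5 g/L) and 3 of N0 (0 g/L), are used here to place the response among the other nitrate levels. All groups are the same strain, labelled SHOU-1002, and the libraries of a group are biological repeats by the design, which describes them no further. Culture age, harvest time and batches are not stated in the labels.

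Nitrate is taken up by plasma membrane transporters, reduced to nitrite by nitrate reductase in the cytosol and to ammonium by nitrite reductase in the chloroplast, and fixed into glutamine and glutamate. Green microalgae that run short of nitrogen generally divide more slowly, lose chlorophyll and store carbon as starch and triacylglycerol, which is why nitrate supply is used to raise lipid yield. The measured units are assembled transcript features with names of the form that the Trinity assembler gives. The tables used here hold feature IDs and values only, with no gene names, functions or sequences, so no feature is placed in these pathways here, and the lists of nitrogen and lipid genes could not be applied. A bulk measurement also cannot tell apart a change in every cell from a change in the share of cells in some state.

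The 6 libraries held between 22027761 and 24170650 estimated counts each. The groups were separated by the correlation of their libraries, but the typical feature differed little more between the groups than within them. Pearson's r of log2 CPM (CPM, counts relative to the library total after TMM scaling, with a prior count of 2) across the 15429 tested features was 0.982 to 0.985 for the 6 pairs of libraries within a group and 0.975 to 0.978 for the 9 pairs across the groups, which did not overlap. The median absolute difference in log2 CPM was 0.11 to 0.19 between pairs of N1 libraries and 0.11 to 0.16 between pairs of N1.5 libraries. Between an N1 and an N1.5 library it was 0.17 to 0.22. The N1 pair that was farthest apart, replicates 1 and 2, differed by more in this measure than some pairs across the groups.

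Against this spread, 613 features rose and 556 fell in N1 relative to N1.5, together 1169 or 7.58% of those tested (edgeR quasi-likelihood test, Benjamini-Hochberg adjusted p under 0.05). Rises were 3.97% and falls 3.6% of the tested features. The same test called 61.9% in N0.5 and 57.8% in N0, each against the same N1.5 libraries. The median absolute log2 fold change over all tested features was 0.14 in N1, against 0.52 in N0.5 and 0.47 in N0.

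**Figure D1:**
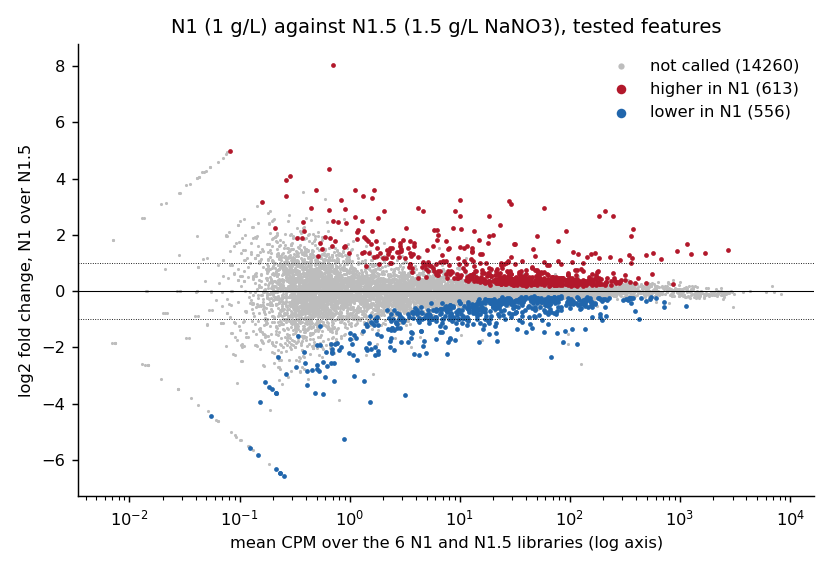
Each point is one tested feature, with its mean CPM over the 6 N1 and N1.5 libraries on a log axis and its log2 fold change of N1 over N1.5. The 613 rises and 556 falls are coloured, dotted lines mark 2-fold, and most coloured points lie inside those lines except at low CPM.

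Most of these changes were small. The median log2 fold change was 0.48 among the rises, with a median standard error (SE) of 0.10, and -0.67 among the falls, with a median SE of 0.13. Of the rises, 353 (57.6%) were under 1.5-fold, and of the falls 245 (44.1%). The 10th and 90th percentiles were 0.26 and 1.83 for rises and -2.04 and -0.28 for falls. Changes of 2-fold or more made up 2.12% of the tested features, with 167 rises and 160 falls. In 1158 of the 1169 (99.1%) the 3 N1 libraries lay wholly on one side of the 3 N1.5 libraries. Such separation alone was common: 12.9% of all tested features were separated upwards and 13.6% downwards.

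How many features passed depended on which libraries were in the fit. The count was 722 without N1 replicate 1, 612 without N1 replicate 3, 644 without N1.5 replicate 1 and 689 without N1.5 replicate 2. It was 1320 without N1 replicate 2 and 1056 without N1.5 replicate 3. A group of 524 features, 276 rises and 248 falls, passed with the same sign in all 6 of these fits. They made up 44.8% of the 1169. Their median log2 fold change was 0.75 for the rises and -0.85 for the falls.

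**Figure D2:**
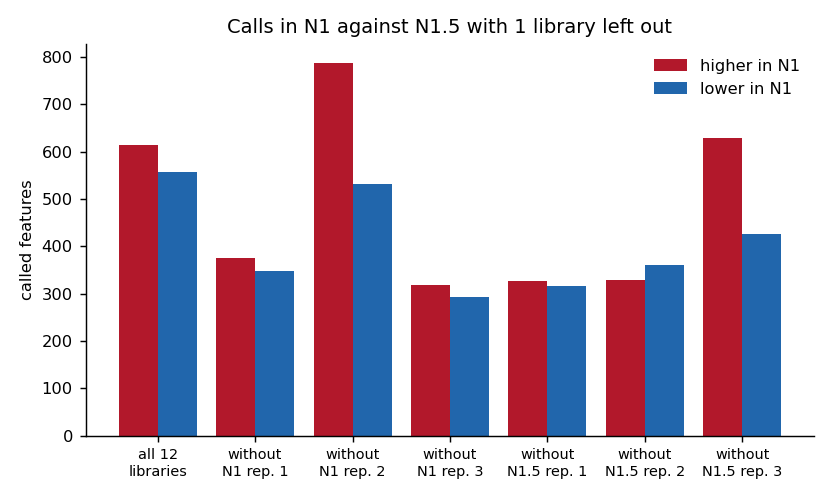
Bars give the number of features higher (613 with all libraries) and lower (556) in N1 than in N1.5 by edgeR, with all 12 libraries and with each N1 or N1.5 library left out. The total lies between 612 and 1320, lowest without N1 replicate 3 and highest without N1 replicate 2.

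Among abundant features, falls of 2-fold or more were rare. At a mean of 100 CPM or more over the 6 libraries, 116 of 1905 features rose (6.09%) and 68 fell (3.57%), so the share of falls was near that over all tested features. Of these, 25 rises but 4 falls reached 2-fold, and the largest fall had a log2 fold change of -1.87. Over all 15429 tested features, 167 rises and 160 falls reached 2-fold. As a share of their level, the 25 rises were thus near that over all tested features, and the 4 falls were below it. All 25 of these rises passed in each of the fits with 1 library left out. Together they summed to 20234, 17987 and 19794 CPM in the N1 libraries, against 6849, 5440 and 8839 CPM in the N1.5 libraries. Every N1 library was thus above every N1.5 library by a wide margin, while N1 replicate 2 and N1.5 replicate 2 were the lowest of their groups. The direction of this difference follows from how the features were picked. The same 25 summed to 12449 to 14451 CPM in the N0.5 libraries and 55175 to 66053 CPM in the N0 libraries. The N0 mean was above the N1 mean for 22 of them, and the N0.5 mean for 6.

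Of all 613 rises, the one with the highest mean CPM in N1 stood at 4134, 3744 and 4112 CPM in the N1 libraries and at 1424, 1144 and 1792 CPM in the N1.5 libraries. The groups were far apart relative to their spread, at a log2 fold change of 1.46 (SE 0.13, edgeR adjusted p = 2.20e-05). It was at 2438 to 2897 CPM in N0.5 and at 11560 to 13547 CPM in N0. A feature on another assembled sequence (contig) of the same Trinity gene was called lower in N1, at a log2 fold change of -0.31 (SE 0.075). Counts summed over that Trinity gene had a log2 fold change of 1.40.

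The naming rule kept 379 features that passed in every fit at a mean of 10 CPM or more and without overlap between the groups. The largest changes among them are given by their IDs, and no gene is known for any of them. That their N1 and N1.5 libraries do not overlap is thus set by the rule. TRINITY_DN9925_c0_g1_i1_2 was at 54.8, 42.5 and 54.0 CPM in the N1 libraries and at 4.73, 5.30 and 6.30 CPM in the N1.5 libraries. Its lowest N1 library was several times its highest N1.5 library. The log2 fold change was 3.21 (SE 0.20, edgeR adjusted p = 3.37e-06). N1 had its highest mean of the 4 groups, with 31.5 ± 0.97 CPM in N0 and 20.8 ± 6.28 CPM in N0.5 (SD, n = 3).

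TRINITY_DN6887_c0_g2_i5_4 was at 50.1, 54.3 and 53.4 CPM in N1 and at 6.44, 6.12 and 5.90 CPM in N1.5. Both groups were tight and far apart, at a log2 fold change of 3.09 (SE 0.22, edgeR adjusted p = 7.53e-06). In N0.5 it was also above N1.5, at 23.7, 41.8 and 50.9 CPM (log2 fold change 2.66, edgeR adjusted p = 1.65e-07). In N0 it was at 7.99 ± 0.80 CPM (SD, n = 3), which did not pass against N1.5 (log2 fold change 0.38, edgeR adjusted p = 0.206). N0 itself was below N0.5, by a log2 fold change of -2.28 (edgeR adjusted p = 3.39e-07). This feature was thus high at both intermediate nitrate levels.

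TRINITY_DN6074_c0_g2_i2_3 had the largest fall among the features kept by the naming rule. It was at 29.8, 13.3 and 23.4 CPM in N1 and at 112, 73.9 and 153 CPM in N1.5. The lowest N1.5 library was above the highest N1 library, though both groups were spread widely. The log2 fold change was -2.35 (SE 0.32, edgeR adjusted p = 0.000494). It was lower still in N0.5, at 5.31, 6.45 and 1.78 CPM, with a log2 fold change of -4.64 against N1.5 (edgeR adjusted p = 1.72e-07). In N0 it was at 566 ± 25.6 CPM (SD, n = 3), above N1.5 with a log2 fold change of 2.33 (edgeR adjusted p = 1.28e-05).

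TRINITY_DN6013_c0_g1_i3_2 was at 5.41, 7.73 and 6.47 CPM in N1 and at 22.1, 21.7 and 25.5 CPM in N1.5, with no overlap. The log2 fold change was -1.82 (SE 0.18, edgeR adjusted p = 5.01e-05). It was also below N1.5 in N0.5 (log2 fold change -1.22) and in N0 (log2 fold change -2.11). A second feature of the same Trinity gene was at 30.0 ± 3.97 CPM in N1 and 28.7 ± 1.03 CPM in N1.5 (SD, n = 3). Its log2 fold change of 0.07 did not pass (edgeR adjusted p = 0.780). All 4 named features kept their sign under the 13 alternative settings that the naming rule did not use. Those settings reuse the libraries by which the features were picked, so the selection itself favours this.

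**Figure D3:**
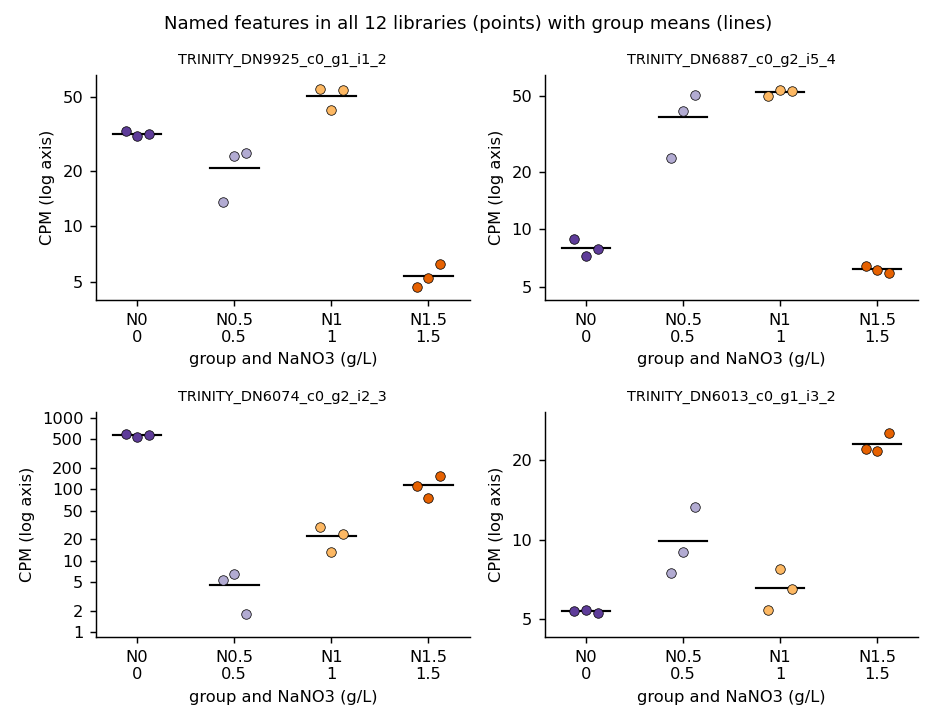
Points are the CPM of each named feature in the 12 libraries on a log axis, with groups ordered by NaNO3 and lines at group means. The upper 2 features are near 50 CPM in N1 and near 6 CPM in N1.5; the lower left feature is lowest in N0.5 and highest in N0, and the lower right one is lower in N1, N0.5 and N0 than in N1.5.

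At the other nitrate levels, features that rose in N1 were on balance higher still in N0. The values that follow share the N1.5 libraries with the comparison that picked the features, so a likeness in sign is partly built in. For the 613 rises the median log2 fold change was 0.48 in N1, then 0.50 in N0.5, and reached 1.17 in N0. For the 167 rises of 2-fold or more it was 1.60, 1.19 and 4.22. For the 556 falls the medians were -0.67 for N1, -0.22 for N0.5 and -0.99 for N0, and for the 160 falls of 2-fold or more -1.71, -0.51 and -1.33. Over all tested features the medians were 0.01, 0.05 and -0.01. Falls of 2-fold or more thus had a larger median in N1 than at either lower level. Of the 160, 88 (55.0%) had their lowest group mean in N1, against 14.9% of all tested features. Their choice by a large fall in N1 itself favours both, so neither is read as a trait of N1. These features were mostly of low abundance, with a median of 2.37 CPM over the 6 libraries. Of the 167 rises of 2-fold or more, 30 were below 1 CPM, where a feature could pass the filter on low counts through N0 or N0.5 alone.

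Among the 4 group means, the control was never the highest for a rise or the lowest for a fall, as the selection requires. Of the 613 rises, 375 had their highest mean in N0, 143 in N0.5 and 95 (15.5%) in N1. Of all 15429 tested features, 4811 had it in N0, 5642 in N0.5 and 2195 (14.2%) in N1. A further 2781 had it in N1.5, which no rise can, so the 15.5 and 14.2% are not like for like. Of the 556 falls, 276 had their lowest mean in N0, 123 in N0.5 and 157 (28.2%) in N1. Of all tested features, 4914 had it in N0, 5023 in N0.5 and 2299 (14.9%) in N1. A further 3193 had it in N1.5, which no fall can. Selection for a high or low N1 mean itself raises the N1 shares of the rises and falls.

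The comparison of N0 with N0.5 shares no library with that of N1 with N1.5, and so gives a reading of the same features in other libraries. It called 34.2% of the tested features higher and 33.1% lower in N0. Among the 613 features that rose in N1, 392 (63.9%) were higher in N0 than in N0.5 and 153 were lower. Among the 556 that fell in N1, 324 (58.3%) were lower in N0 than in N0.5 and 136 were higher. Among the rises of 2-fold or more, 137 of 167 (82.0%) were higher in N0, with a median log2 fold change of 3.06. The falls of 2-fold or more were lower in N0 for 76 of 160 (47.5%), with a median of -0.82. Of these 2-fold sets, 30 rises and 48 falls had a mean below 1 CPM over the 6 libraries. Features at that level could pass the filter on low counts through N0 or N0.5 alone. The shares and medians of the 2-fold sets are therefore not read as an excess. The median over all tested features was -0.02.

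**Figure D4:**
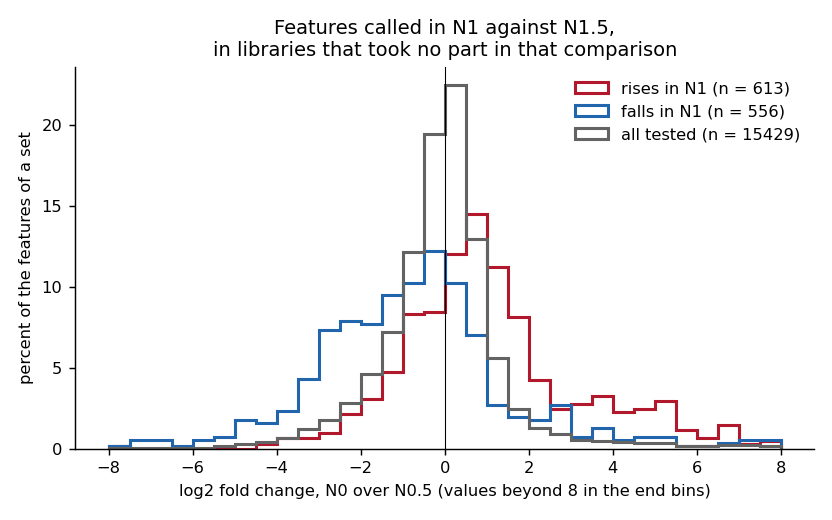
Lines give the distribution of log2 fold changes of N0 over N0.5, as the percent of each set, for the 613 rises and 556 falls in N1 and for all 15429 tested features. The rises lie to the right with a tail beyond 2 and a median of 0.78, the falls lie to the left with a median of -0.79, and all tested features centre near 0.

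The excess over all features was present in each range of abundance from 1 CPM upwards. At 100 CPM or more, 75 of the 116 rises (64.7%) were higher in N0 than in N0.5, against 40.7% of all features of that level, and 54 of the 68 falls (79.4%) were lower, against 40.1%. Between 10 and 100 CPM the values were 57.2% of rises against 43.0%, and 55.2% of falls against 34.2%. Between 1 and 10 CPM they were 81.3% of rises against 24.2%, and 57.7% of falls against 35.7%. Below 1 CPM they were 76.7% of 30 rises against 15.4%, and 47.9% of 48 falls against 22.9%. Features at this lowest level could pass the filter on low counts through N0 or N0.5 alone, so its shares are not read as an excess. When N1 with N1.5 and N0 with N0.5 were fitted apart, 61.1% of rises were higher and 55.1% of falls were lower, against 36.1 and 33.4% of all features.

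One set of features moved with single libraries and is given here for that reason. The 214 features at least 32-fold higher in N0 than in N1.5 summed to 2147, 1676 and 2056 CPM in N1 replicates 1, 2 and 3, and to 403, 322 and 700 CPM in N1.5 replicates 1, 2 and 3. They summed to 990 to 1069 CPM in N0.5 and 27753 to 30527 CPM in N0. All N1 libraries were above all N1.5 libraries in this sum, with replicate 2 lowest in both groups and replicate 3 highest in N1.5. As a median over the set, the level was 2.49, 1.44 and 2.22% of the N0 mean in the N1 libraries and 0.53, 0.51 and 1.60% in the N1.5 libraries. By this median N1.5 replicate 3 was above N1 replicate 2. Of the 214, 60 (28.0%) rose in N1 and 7 (3.27%) fell, against 3.97 and 3.6% of all tested features. The 60 were 9.79% of the 613 rises. Its choice for low values in N1.5 favours higher values in N1. With the set left out before the fit, 544 features rose and 552 fell in N1, and 60.5% of the rises were higher in N0 than in N0.5, against 33.9% of all features in that fit. What raised the set in single libraries was not tested.

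Trinity groups contigs that share sequence into 1 gene, and a change of direction between such contigs was frequent among the few that could be compared. The 16413 features belong to 13791 contigs and 11533 Trinity genes, 1964 of which had more than 1 tested contig. In 18 of these, 2 contigs were called in N1, and in 15 of the 18 (83.3%) one rose and the other fell, while in 3 both rose. Against the same N1.5 libraries, the corresponding shares were 509 of 984 (51.7%) in N0.5 and 478 of 889 (53.8%) in N0. Features of 1 and the same contig also differed in direction. Among contigs with 2 or more called features, this held for 6 of 14 in N1, 385 of 759 in N0.5 and 376 of 702 in N0. Opposite directions were thus not particular to different contigs of a gene. The differences between these shares were not tested. Reads shared by the contigs may have been split between them by the counting, so single contigs are uncertain. In 4 of the 15, both contigs passed in all 6 fits with 1 library left out.

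With counts summed over the Trinity gene, 9 of the 15 passed, 2 higher and 7 lower in N1. In the example of the 4 where the smaller of both changes was largest, picked after its values were seen, one contig was at 855, 754 and 867 CPM in N1 and at 321, 247 and 390 CPM in N1.5, with a log2 fold change of 1.37 (edgeR adjusted p = 0.000101). The other contig was at 4.30, 5.40 and 4.07 CPM in N1 and at 9.10, 9.23 and 9.05 CPM in N1.5, with a log2 fold change of -0.99 (edgeR adjusted p = 0.00170). Neither contig's libraries overlapped between the groups. Counts summed over all features of this Trinity gene, which may include others than these contigs, had a log2 fold change of 1.24. This was the direction of the far more abundant contig.

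**Figure D5:**
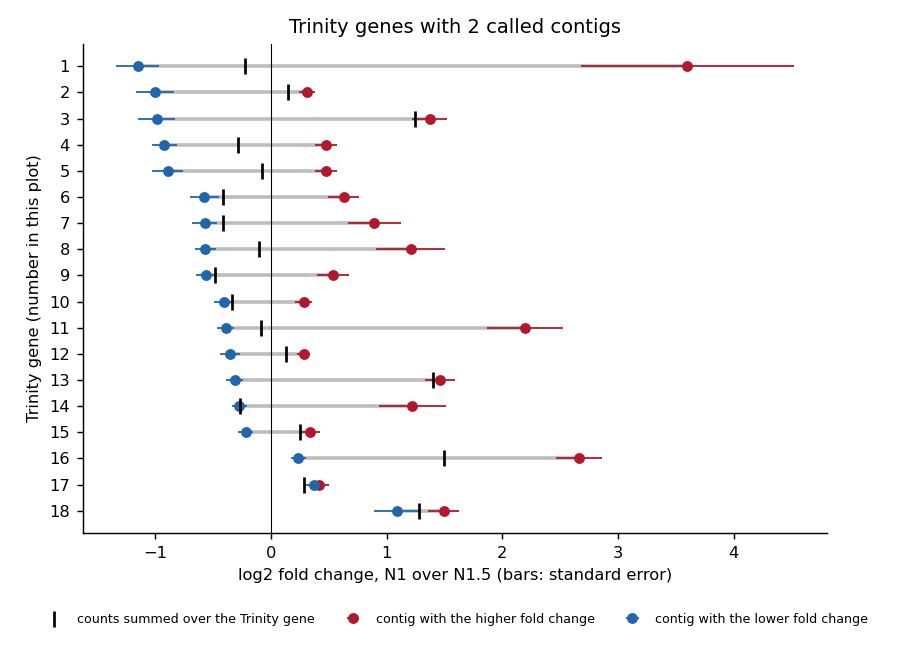
Each line is one of the 18 Trinity genes with 2 called contigs; points are the log2 fold changes of N1 over N1.5 with standard errors, and the tick is the value of counts summed over all features of the gene. In 15 genes the points lie on both sides of 0, and in the lowest 3 both lie above it.

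Few features were at 0 in one group and present in the other. Of 111 features at 0 in all N1.5 libraries, 4 had 3 or more counts in each N1 library and at most 14, and none of these 4 passed the filter on low counts, so they were not tested. Of 123 at 0 in all N1 libraries, 10 had 3 or more counts in each N1.5 library and at most 16, of which 7 passed the filter and 5 were called lower in N1. A count of 0 allows up to 3 counts, or 0.124 to 0.136 CPM before TMM scaling in these libraries. The largest fitted rise among called features, with a log2 value of 8.05 that depends on the prior count, was at 0.13, 1.32 and 2.83 CPM in N1 and at 0 in all N1.5 libraries, and did not pass in every fit with 1 library left out.

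The make-up of the libraries differed little. In each library the top 100 features by count held 22.3, 22.2 and 21.9% of the counts in N1 and 22.7, 23.2 and 23.0% in N1.5. All N1 libraries were below all N1.5 libraries, with a difference in means of -0.87 percentage points (two-sided exact permutation p = 0.1, the smallest value that 3 against 3 allows). Features at 1 CPM or more before TMM scaling numbered 12650 ± 109 in N1 and 12673 ± 71.1 in N1.5 (SD, n = 3), a difference within the spread (two-sided exact permutation p = 0.8).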

How the data were processed

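The authors deposited tables of estimated counts and of FPKM values for 16413 features in 12 libraries. The tools named in the submitters' processing notes are Bowtie2 2.4.5, Trimmomatic 0.40 and DESeq, without their roles. For assembly, counting tool and strand setting, nothing is stated in the labels. Per the labels' protocols, libraries were made from oligo(dT)-purified mRNA, so transcripts without poly(A) tails are poorly represented.

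Estimated counts were rounded and tested in edgeR 4.0.16 (R 4.3.3) with TMM scaling, filterByExpr by group (15429 features kept) and 1 fit of all 12 libraries with no covariate. Tests were two-sided, with Benjamini-Hochberg adjustment over all tested features. Alternatives included DESeq2 1.42.0 and limma 3.58.1 on log2(FPKM + 1) and log2(FPKM + 0.1) of the deposited FPKM. P-values measure only the spread between these libraries.

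Named features were called in the main test and in all 6 fits with 1 library left out, had a mean of at least 10 CPM and libraries that did not overlap; the 2 largest rises and falls are given. The comparison to report, the lists and the rules were chosen with earlier results of these data known. The tests of Trinity genes and of N0 against N0.5 for the called features were added after seeing the data.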

Additional observations from a re-analysis of the deposited data

How the results depend on the processing

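Of 56 alternative counts of calls other than those with 1 library left out, 43 stayed within 1.5 times the reported one. With N1.5 replicate 3 and N1 replicate 1 left out together, 698 features were called and 270 fell. With N1 replicate 3 also left out, 295 were called, 202 up and 93 down, of which 167 by 2-fold or more. Both sets were picked for the level of N0 features in them; the single N1 library left is assumed to vary like the other groups. Against a minimum change of 1.5-fold (glmTreat), 160 were called, 102 up and 58 down, 153 of them at 2-fold or more. Calls of 2-fold or more were 177 and, without a filter, 182 on the log2(FPKM + 1) scale, which shrinks low features, and 204 with counts summed over Trinity genes, which leaves 11109 units to test. With 1 library left out, calls ranged from 612 to 1320, rises from 318 to 788, falls from 294 to 532 and calls of 2-fold or more from 234 to 363. DESeq2 called 1605. Falls outnumbered rises in 7 of 20 alternatives: library totals for scaling (634 down, 596 up), only the 6 libraries in the fit (508, 446), without N1.5 replicate 2 (361, 328), without the features 32-fold higher in N0 (552, 544), log2(FPKM + 1) with (637, 579) and without (621, 566) the filter, and counts summed over Trinity genes (472, 415). The replicate block gave 1184 calls (647 up, 537 down); same-numbered N1 and N1.5 libraries did not deviate together (r = -0.03, 0.05 and -0.02 across features), so the numbers were not taken as pairs. As a share of summed FPKM, the 100 most abundant features were 1.28 percentage points lower in N1 (a difference of -1.28). With 4 libraries left out for the level of N0 features, which leaves 1 N0.5 library under the same assumption, 69.8% of N1 rises were higher and 45.5% of N1 falls lower in N0 than in N0.5, against 28.7 and 26.0% of all features. The cause of these shifts was not tested. Below 1 CPM, counts limit what can be called.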
